A study of Mus musculus with 22 samples.

Results

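Dentate granule neuron markers are genes whose transcripts label the principal cells of the dentate gyrus, the entry station of the hippocampal circuit. The 8 genes followed here are Prox1, Dsp, C1ql2, C1ql3, Tdo2, Calb1, Stxbp6 and Npnt, taken by name from what is known of these cells, with every non-control probe whose RefSeq transcript belongs to them. They are 8 of 21154 genes with a RefSeq match on the array, measured by 10 of 55681 non-control probes. RNA came from the right hippocampus of untreated TgproNGF#3 and wild-type (WT) mice of the C57Bl/6xDBA/2 strain, 1 mouse per Agilent array, with 4 mice of each genotype at 1 month (males), 4 at 3 months (males) and 3 at 12 months (females). TgproNGF#3 is a single founder line that carries a proNGF cDNA made resistant to the protease furin, followed by an IRES and EGFP, under the neuronal Thy1.2 promoter. WT mice carry no transgene. Each age lies on its own slide, so age and slide cannot be told apart, nor can sex where 12 months is set against the younger ages, and all genotype comparisons stay within an age. At 1 month the WT arrays lie in columns 1 and 2 of the slide and the TgproNGF#3 arrays in columns 3 and 4, so that column and genotype cannot be told apart in any value of that age. Each sample is labelled as 1 mouse, so p-values measure the spread between mice together with that between their arrays.

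Granule neurons receive input from the entorhinal cortex and send their axons, the mossy fibres, to CA3 pyramidal neurons. They are among the few neurons that are still added in the adult rodent brain. ProNGF, the precursor of nerve growth factor, binds the p75 neurotrophin receptor with sortilin. The comparison therefore asks whether transcripts typical of these neurons differ between mice that express uncleavable proNGF and WT mice. In whole-hippocampus RNA, fewer granule neurons and less RNA per granule neuron cannot be told apart.

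Every level below is the log2 intensity of a probe relative to the 75th percentile of its own array, so a value of -1 is 1 log2 unit under that percentile. A Log2 FC is the TgproNGF#3 mean minus the WT mean of these levels. All 8 genes had a probe that was well above background on 22 of 22 arrays, as had 11 of 12 other genes known from granule neurons, so the markers that define the cell type were present in the labelled tissue. Levels of different probes are not compared with each other. The 75th percentile lay between 10.413 and 11.964 (log2) over the arrays, 57.6 to 80.27% of the non-control spots of an array were well above background, and no spot was saturated. Dsp is printed on the array as 10 copies of its probe, of which 7 to 10 were left on an array without outlier-flagged or dim spots. The SD over these copies within an array was 0.0331 to 0.0674. It measures the error between spots of an array only. The SD between mice of a group was 0.104 to 0.552, which holds differences between arrays as well as between mice.

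No granule neuron marker differed between TgproNGF#3 and WT at any age after adjustment over all probes. Of all probes tested, 0 of 40536 had an adjusted p below 0.05 at 1 month, 2831 of 33593 at 3 months and 0 of 34064 at 12 months. At 1 and 12 months the adjusted result is thus that of every probe and not particular to the markers. With an unadjusted p below 0.05 in limma's moderated test, 0 of 8 genes differed at 1 month, 1 of 8 at 3 months and 3 of 8 at 12 months, against 3.47%, 27.2% and 9.05% of all probes tested. When a Log2 FC beyond 1 in either direction was required as well, 0 of 8 genes were called at 1 month (0.57% of all probes), 0 of 8 at 3 months (6.76%) and 1 of 8 at 12 months (1.3%). The gene called at 12 months was C1ql2, lower in TgproNGF#3, and the other genes with an unadjusted p below 0.05 there were C1ql3 and Calb1, both higher. With the slide row as a block, which rests on the single WT mouse of row 2, the Log2 FC was 0.26 in place of 0.61 for C1ql3 and 0.56 in place of 0.73 for Calb1, and neither kept an unadjusted p below 0.05 in limma's test (0.343 and 0.122). C1ql3 lost it also without TgproNGF#3 replicate 3, WT replicate 1 or WT replicate 2. Adjusted over all probes, the p-values of the 8 genes were all 1 at 1 month and at least 0.179 at 3 months and 0.549 at 12 months. The median Log2 FC of the 8 genes was 0.22 at 1 month, -0.15 at 3 months and 0.04 at 12 months, beside 0.07, -0.05 and 0.06 over all genes. Leaving out each mouse in turn gave medians of 0.11 (without WT replicate 2) to 0.32 at 1 month, -0.21 to -0.09 (without WT replicate 1) at 3 months and -0.05 to 0.27 (without WT replicate 3) at 12 months.

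**Figure D1:**
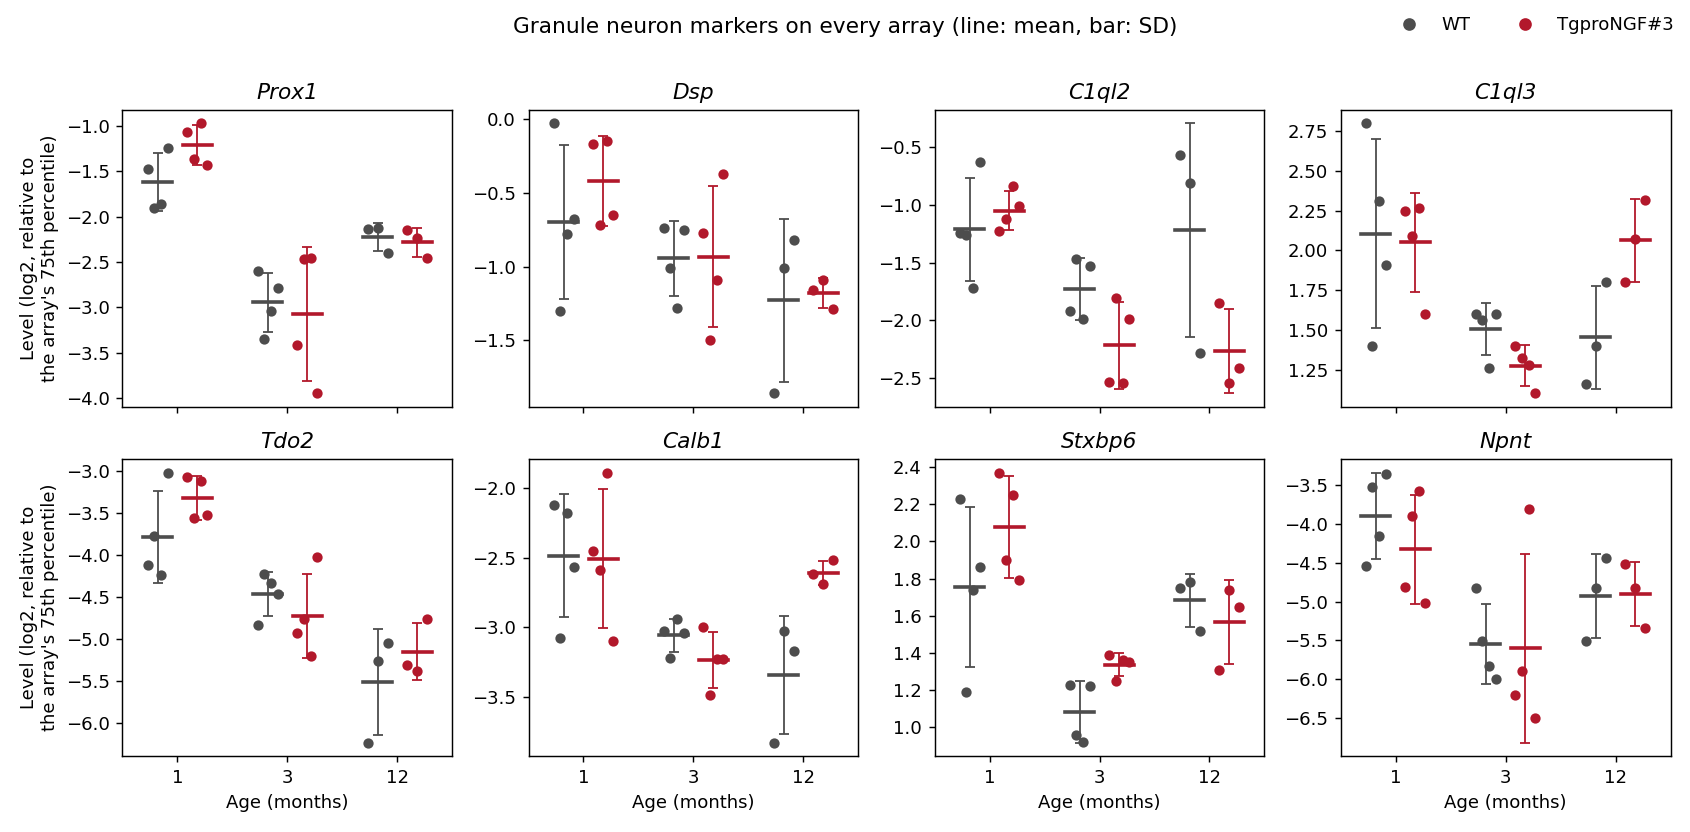
Level of each of the 8 genes on all 22 arrays (y axis, log2 relative to the array's 75th percentile) by age in months (x axis), WT in grey and TgproNGF#3 in red, with the mean as a line and the SD as a bar. The groups overlap in most panels, and they stand apart for Calb1 at 12 months and Stxbp6 at 3 months.

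**Figure D2:**
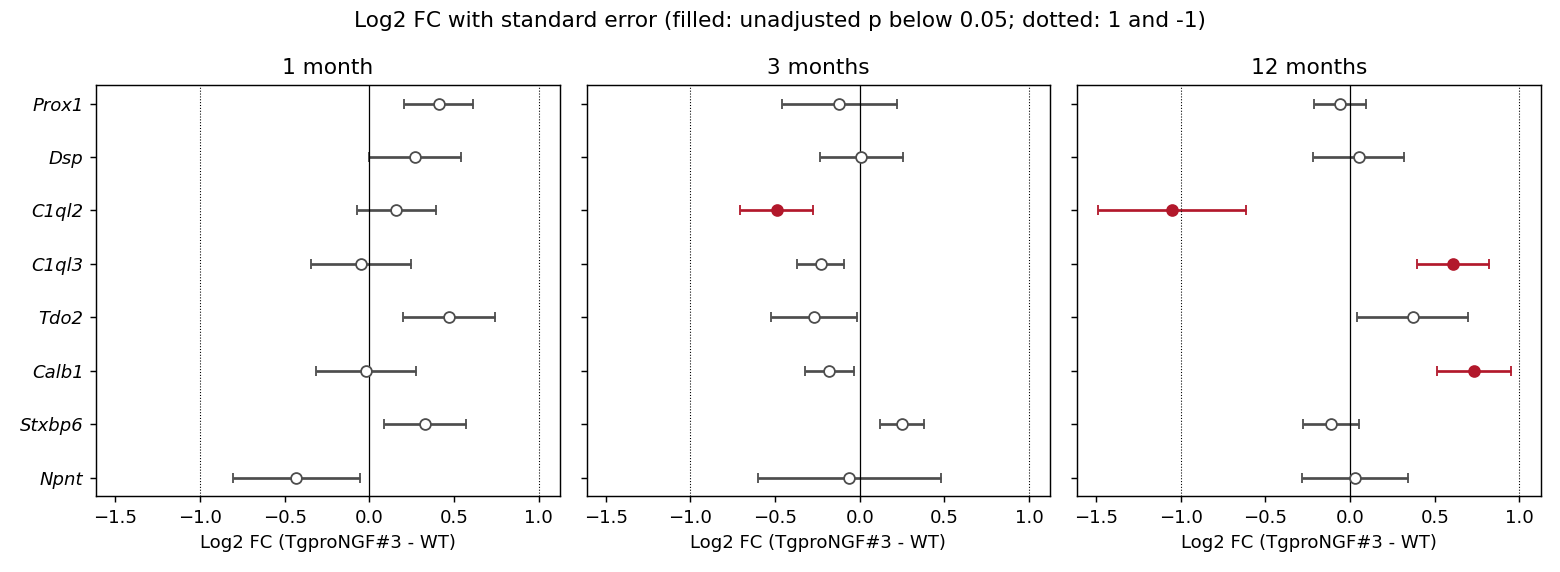
Log2 FC (x axis, TgproNGF#3 minus WT) with its standard error for the 8 genes (y axis) at 1, 3 and 12 months, filled in red where the unadjusted p is below 0.05 and with dotted lines at 1 and -1. C1ql2 at 3 and 12 months and C1ql3 and Calb1 at 12 months are filled, and C1ql2 at 12 months alone passes a dotted line.

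C1ql2 and C1ql3 encode secreted C1q-like proteins that granule neurons release at mossy fibre synapses, where they bridge neurexin 3 on the axon and kainate receptors on the CA3 neuron. These paralogs are shown by their upstream sequence because their Log2 FC had opposite signs at 12 months. Dsp and Stxbp6 are added because their levels followed C1ql3 among the mice of a group, as described further on. RefSeq windows upstream of the start site were at hand for 7 of the 8 genes, with none for Calb1. The 250 bases before the start are given in the GRCm38.p6 build, 5′ to 3′ on the gene's strand, in lower case. Capitals mark matches on either strand to TATAAA (the TATA box), TGACGTCA (the cyclic AMP response element), CAGATG (an E-box form read by NeuroD factors) or GGGCGG (the GC box), none of which overlap in these windows.
C1ql2, chr1:120340332-120340581, plus strand: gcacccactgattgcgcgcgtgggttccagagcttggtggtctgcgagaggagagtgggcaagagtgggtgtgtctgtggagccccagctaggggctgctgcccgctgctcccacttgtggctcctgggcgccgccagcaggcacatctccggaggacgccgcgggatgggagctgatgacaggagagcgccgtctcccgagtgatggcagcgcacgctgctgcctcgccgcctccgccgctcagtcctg
C1ql3, chr2:13010865-13011114, minus strand: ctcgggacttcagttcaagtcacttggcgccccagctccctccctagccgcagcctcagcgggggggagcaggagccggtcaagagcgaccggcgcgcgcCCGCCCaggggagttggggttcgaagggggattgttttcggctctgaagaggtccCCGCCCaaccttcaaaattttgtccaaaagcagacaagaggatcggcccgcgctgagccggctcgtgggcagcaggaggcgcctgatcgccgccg
Dsp, chr13:38151044-38151293, plus strand: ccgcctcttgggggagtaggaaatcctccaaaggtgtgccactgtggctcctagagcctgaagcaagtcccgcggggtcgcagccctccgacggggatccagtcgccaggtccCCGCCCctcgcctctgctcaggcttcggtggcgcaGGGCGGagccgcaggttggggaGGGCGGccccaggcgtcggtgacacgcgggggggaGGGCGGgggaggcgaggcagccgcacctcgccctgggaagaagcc
Stxbp6, chr12:45074484-45074733, minus strand: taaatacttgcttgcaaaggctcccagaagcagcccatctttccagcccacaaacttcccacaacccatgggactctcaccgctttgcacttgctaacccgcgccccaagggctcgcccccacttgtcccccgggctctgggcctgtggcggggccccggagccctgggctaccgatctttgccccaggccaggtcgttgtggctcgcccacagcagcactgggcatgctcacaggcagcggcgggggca
The GC box was the only one of the 4 motifs found in these windows, with 2 matches upstream of C1ql3 and 4 upstream of Dsp. The C1ql2 and Stxbp6 windows held no match. Among 32817 windows of 250 bases from all genes, 32.7% held a GC box, 12.4% a TATA box, 14.5% the E-box and 1.55% the full response element. The G and C share was 68.8% upstream of C1ql2 and 66.4% upstream of C1ql3. Prox1 and Npnt each have a pair of annotated starts. Of their windows only that of the upstream Prox1 start held a TATAAA match, together with an E-box and 2 GC boxes. The match lay 34 bases before the start on the strand opposite to the gene, so it does not read as a TATA box in the gene's direction.

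At 12 months, C1ql2 read -1.85, -2.54 and -2.41 in the TgproNGF#3 mice. In the WT mice it read -0.57, -0.81 and -2.28. WT replicates 1 and 2 were higher than every TgproNGF#3 mouse, and WT replicate 3 lay within the TgproNGF#3 range. TgproNGF#3 differed from WT by a Log2 FC of -1.05 (SE 0.438), a 2.07-fold lower level, with an unadjusted p of 0.0455 and an adjusted p of 0.549 in limma's moderated test. The two-sided exact permutation test gave p = 0.2, where 3 against 3 mice cannot go below 0.1. This absolute Log2 FC exceeded that of 98.5% of the probes tested. Slide position moved with this result: WT replicates 1 and 2 lie in row 1 of the slide, and WT replicate 3 lies in row 2 together with all 3 TgproNGF#3 mice. Within row 2 the TgproNGF#3 mean was -2.27 and the WT mouse -2.28, a Log2 FC of 0.01, and without WT replicate 3 the Log2 FC was -1.58 with an adjusted p of 0.0515. The 75th percentile was 10.413 and 10.657 (log2) on the row 1 arrays and 10.967 to 11.267 on those of row 2, and row and genotype cannot be told apart for the WT mice of row 1. C1ql2 stayed called in 5 of 12 processing alternatives, and the call was lost without TgproNGF#3 replicate 2 or 3 or WT replicate 1 or 2.

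**Figure D3:**
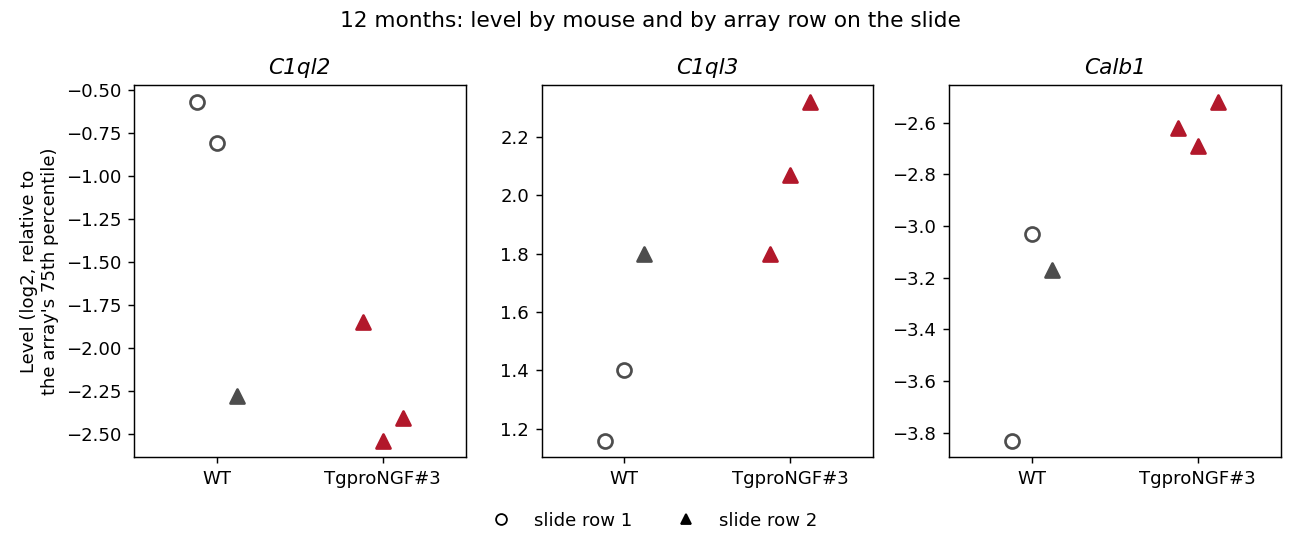
Levels of C1ql2, C1ql3 and Calb1 (y axis, log2 relative to the array's 75th percentile) in the 3 WT and 3 TgproNGF#3 mice of 12 months, with open circles for arrays in slide row 1 and filled triangles for row 2. The WT mouse in row 2 sits at -2.28 among the TgproNGF#3 mice for C1ql2, at 1.80 on the lowest of them for C1ql3, and at -3.17 below all of them for Calb1.

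At 3 months C1ql2 was also lower in TgproNGF#3, with -2.53, -1.81, -2.54 and -1.99 against -1.92, -1.47, -1.99 and -1.53 in WT. The groups overlapped, with TgproNGF#3 replicate 2 above both of the lower WT mice. This gave a Log2 FC of -0.49 (SE 0.215), with an unadjusted p of 0.0475 and an adjusted p of 0.179 in limma's test, and p = 0.114 in the exact permutation test. The unadjusted p stayed below 0.05 in 5 of 12 processing alternatives and in 4 of the 8 fits that left out a mouse. It was 0.0757 with median scaling, 0.0694 with quantile normalization, 0.218 with dim spots kept, 0.184 with the percentile over all spots, 0.117 with the authors' values, 0.114 in the joint fit and 0.0627 with the slide row as a block, and 0.117 to 0.125 without TgproNGF#3 replicate 1 or 3 or WT replicate 2 or 4. Both rows of the 3-month slide hold both genotypes, and the Log2 FC was -0.47 within row 1 and -0.50 within row 2. At 1 month the Log2 FC was 0.16 (SE 0.232), with WT mice from -1.72 to -0.63 around a TgproNGF#3 range of -1.23 to -0.84.

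C1ql3 did not follow C1ql2. At 12 months it read 1.80, 2.07 and 2.32 in TgproNGF#3 and 1.16, 1.40 and 1.80 in WT, with the highest WT mouse level with the lowest TgproNGF#3 mouse. Its Log2 FC was 0.61 (SE 0.213), 1.52-fold, with an unadjusted p of 0.0229 and an adjusted p of 0.549 in limma's test and p = 0.2 in the exact permutation test. Within slide row 2 it was 0.26. At 3 months the Log2 FC was -0.23 (SE 0.14), with 1.40, 1.32, 1.28 and 1.10 in TgproNGF#3 against 1.60, 1.56, 1.26 and 1.60 in WT. WT replicate 3 was the low one there, and the other 3 WT mice were above every TgproNGF#3 mouse. At 1 month the Log2 FC was -0.05 (SE 0.295), and the WT mice spread from 1.40 to 2.80.

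The genes that act with these proteins were taken as a list of 8: Adgrb3, Grik2 and Nrxn3, which encode their receptors and binding partners, Stx1a and Snap25, the SNARE proteins of the release machinery, and the related secreted proteins C1ql1, Cbln1 and Cbln4. At 1 month 1 of 8 was higher and 1 lower with an unadjusted p below 0.05 (2.84% of all genes in either direction), at 3 months 2 were higher and 1 lower (24.9%), and at 12 months 1 was lower (8.1%). None passed the adjusted threshold at any age, which 0 of all genes did at 1 and 12 months and 1027 of 15741 at 3 months. Grik2, a kainate receptor subunit, had a Log2 FC of 0.62 (SE 0.225) at 1 month and 0.72 (SE 0.317) at 3 months. Nrxn3 had -0.68 (SE 0.218) at 3 months, with the groups apart as in 20.3% of all probes, and Cbln4 1.42 (SE 0.422). At 12 months C1ql1 had a Log2 FC of -0.52 (SE 0.221). The list median was 0.11, 0.24 and 0.18 at 1, 3 and 12 months.

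Calb1 encodes calbindin, a cytosolic calcium buffer that is abundant in mature granule neurons and present also in CA1 pyramidal neurons and some interneurons. At 12 months it read -2.62, -2.69 and -2.52 in TgproNGF#3 and -3.83, -3.03 and -3.17 in WT. All 3 TgproNGF#3 mice were above all 3 WT mice, a complete separation that 15.5% of all probes showed at this age, and 1 of the 8 genes. Calb1 thus had a Log2 FC of 0.73 (SE 0.218), 1.66-fold, with an unadjusted p of 0.0111 and an adjusted p of 0.549 in limma's test. The exact permutation test gave p = 0.1, the smallest that 3 against 3 mice can give. Within slide row 2 the Log2 FC was 0.56, with the single WT mouse of that row below all 3 TgproNGF#3 mice.

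Interneuron and CA1 pyramidal markers, which were not chosen for calbindin, had mostly positive Log2 FC values at 12 months. Of all genes, 59.9% had a Log2 FC above 0 and 8.1% an unadjusted p below 0.05. All 4 CA3 pyramidal markers tested were above 0 as well, and 7 of the 8 genes that act with the C1q-like proteins. Of the CA2 markers 2 of 4 were, and 3 of 12 other granule neuron genes. Of 8 interneuron markers, 7 had a Log2 FC above 0 and 3 an unadjusted p below 0.05, all higher, with a list median of 0.49. These were Vip with 0.90 (SE 0.261), Sst with 0.82 (SE 0.294) and Gad1, the GABA-synthesizing enzyme, with 0.58 (SE 0.234). The mean level of the list was 1.00 to 1.37 in TgproNGF#3 and 0.33 to 1.07 in WT, where the highest value was that of WT replicate 3, the WT mouse of slide row 2. The count of 3 was 0 with the slide row as a block, 1 without TgproNGF#3 replicate 1, WT replicate 1 or WT replicate 2, 2 without TgproNGF#3 replicate 3 and 7 without WT replicate 3. All 6 CA1 pyramidal markers had a Log2 FC above 0, 2 with an unadjusted p below 0.05 (Man1a 0.40, Mpped1 0.44), with a median of 0.42 and mean levels of -0.12 to 0.16 in TgproNGF#3 against -0.52 to -0.20 in WT. That count of 2 was 0 in the joint fit and without TgproNGF#3 replicate 3 or WT replicate 2, 1 with the slide row as a block and without TgproNGF#3 replicate 1 or WT replicate 1, and 3 at most over 18 alternatives. No gene of the interneuron or CA1 list passed the adjusted threshold at this age, as 0 of 15698 genes did. The part of these cells in the Calb1 value was not tested. Of the 2 other calcium buffer genes, those of calretinin and parvalbumin, 0 had an unadjusted p below 0.05, with a median Log2 FC of 0.19.

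At the younger ages Calb1 showed no such separation. Its Log2 FC was -0.02 (SE 0.293) at 1 month, where TgproNGF#3 mice ranged from -3.10 to -1.89 and WT mice from -3.08 to -2.12. At 3 months it was -0.18 (SE 0.145), with -3.49 to -3.0 against -3.22 to -2.94. This value was -0.05 with dim spots kept and with the percentile over all spots, and -0.26 to -0.10 over the mice left out.

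Prox1 encodes the homeobox transcription factor that sets and maintains granule neuron identity. At 1 month it read -1.07, -1.36, -0.97 and -1.43 in TgproNGF#3 and -1.47, -1.90, -1.86 and -1.24 in WT. All but 1 WT mouse were below every TgproNGF#3 mouse, and WT replicate 4 lay among them. The Log2 FC was 0.41 (SE 0.204) with an unadjusted p of 0.0723 in limma's test and p = 0.114 in the exact permutation test, and without WT replicate 4 it was 0.53 with an unadjusted p of 0.0332 and an adjusted p of 1. Over all 8 mice left out in turn it ranged from 0.32 to 0.53, with unadjusted p-values up to 0.181. At 1 month 0 of the 8 genes had groups apart, against 3.32% of all probes. The Prox1 Log2 FC was -0.12 (SE 0.341) at 3 months, where TgproNGF#3 mice read -3.42, -2.47, -2.45 and -3.95, with WT mice from -3.35 to -2.60. At 12 months it was -0.06 (SE 0.153), with both groups between -2.46 and -2.12.

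Stxbp6 encodes amisyn, a SNARE-binding regulator of exocytosis. At 3 months it read 1.39, 1.25, 1.36 and 1.35 in TgproNGF#3 and 1.23, 0.96, 0.92 and 1.22 in WT. The groups stood apart, by a small margin between 1.25 and 1.23, in 1 of the 8 genes and in 20.3% of all probes at this age. The Log2 FC was 0.25 (SE 0.132), 1.19-fold, with an unadjusted p of 0.0846 and an adjusted p of 0.247 in limma's test. The exact permutation test gave p = 0.0286, the smallest that 4 against 4 mice can give, and 0.533 after Benjamini-Hochberg adjustment over the 24 tests of 8 genes at 3 ages. The value was 0.22 within slide row 1 and 0.29 within row 2. At 1 month the Log2 FC was 0.33 (SE 0.242) and at 12 months -0.11 (SE 0.165), with overlapping groups at both ages.

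Dsp encodes desmoplakin, which ties the desmosome to intermediate filaments and is a sharp marker of the dentate granule layer in rodents. Its Log2 FC was 0.27 (SE 0.272) at 1 month, 0.01 (SE 0.244) at 3 months and 0.05 (SE 0.266) at 12 months. Leaving out each mouse in turn at 1 month gave 0.07 (without WT replicate 2) to 0.50 (without WT replicate 1). The TgproNGF#3 mice ranged from -0.72 to -0.15 at 1 month, -1.50 to -0.37 at 3 months and -1.29 to -1.09 at 12 months. The WT mice ranged from -1.30 to -0.03, -1.28 to -0.74 and -1.86 to -0.82, and the groups overlapped at every age. A further Dsp probe was well above background on 5 of 22 arrays only, all of 1 month (2 TgproNGF#3 and 3 WT), and gave a Log2 FC of 0.26 (SE 0.377) over those. It read -7.23 to -6.00 there, so a mean over the Dsp probes, which takes it in on those 5 arrays alone, gave a Log2 FC of 1.05 at 1 month with an unadjusted p of 0.21 in limma's test. Of the 4 other desmosome genes, Pkp2 (plakophilin 2) had a Log2 FC of -0.44 (SE 0.163) and Dsg2 (desmoglein 2) of -1.02 (SE 0.265) at 3 months, with unadjusted p-values of 0.0242 and 0.00451 and adjusted p-values of 0.124 and 0.0519, at an age when 24.9% of all genes had an unadjusted p below 0.05. At 1 and 12 months 0 of the desmosome genes tested had an unadjusted p below 0.05.

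Npnt encodes nephronectin, a matrix protein that binds the integrin of Itga8 and Itgb1. It was among the noisier markers, with an SD between mice of up to 1.22. At 3 months TgproNGF#3 replicate 3 read -3.81 while the other 3 TgproNGF#3 mice ranged from -6.50 to -5.89. WT mice ranged from -6.00 to -4.83. Its Log2 FC was -0.43 (SE 0.373), -0.06 (SE 0.54) and 0.03 (SE 0.313) at 1, 3 and 12 months. The other Npnt probe gave 0.20, -0.14 and -0.18, so the 2 probes disagreed in sign at 1 and 12 months, and neither had an unadjusted p below 0.05. The receptor genes had Log2 FC values of 0.48 (SE 0.149) for Itga8 and -0.40 (SE 0.174) for Itgb1 at 3 months, with adjusted p-values of 0.0782 and 0.179.

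Tdo2 encodes tryptophan 2,3-dioxygenase, an enzyme that opens the indole ring of tryptophan and is found in the brain in granule neurons. At 1 month it read -3.07, -3.56, -3.12 and -3.53 in TgproNGF#3 and -4.12, -3.77, -4.24 and -3.02 in WT, with WT replicate 4 above every TgproNGF#3 mouse and the other 3 WT mice below all of them. The Log2 FC was 0.47 (SE 0.273), with an unadjusted p of 0.114, and without WT replicate 4 it was 0.73 with an unadjusted p of 0.00915 and an adjusted p of 1 in limma's test. Leaving out each mouse in turn gave 0.32 to 0.73, with unadjusted p-values up to 0.282. At 3 months the Log2 FC was -0.27 (SE 0.253) and at 12 months 0.37 (SE 0.327), with overlapping groups. The 3-month value was -0.50 without TgproNGF#3 replicate 4, with an unadjusted p of 0.0249 and an adjusted p of 0.121 in limma's test, and -0.11 without TgproNGF#3 replicate 3. The 12-month value ran from 0.01 without WT replicate 1 to 0.60 without WT replicate 3. Of 5 other genes of tryptophan breakdown, 3 could be tested at each age, and 0 of them had an unadjusted p below 0.05.

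The genotype differences were then compared between ages in a fit of all 22 arrays. None of the 24 differences between ages passed an adjusted p of 0.05. Of 32420 probes tested, 1465 did between 12 and 3 months, 930 between 3 and 1 months and 0 between 12 and 1 months. The Log2 FC of C1ql2 was 1.21 lower at 12 months than at 1 month (a difference of -1.21, SE 0.453, unadjusted p = 0.014, adjusted p = 0.652 in limma). The difference between 12 and 3 months was 0.84 (SE 0.35, adjusted p = 0.193) for C1ql3 and 0.91 (SE 0.354, adjusted p = 0.155) for Calb1, and between 12 and 1 months it was 0.75 (SE 0.354, adjusted p = 0.822) for Calb1. These 4 were the ones with an unadjusted p below 0.05: 2 of 8 genes between 12 and 3 months, where 18.5% of all probes were, 2 of 8 between 12 and 1 months (5.97%) and 0 of 8 between 3 and 1 months (14.9%). Slide row moved with these differences too. With the row within each slide as a block, an alternative chosen after seeing the data, the C1ql2 difference was -0.15 (adjusted p = 1 in limma), that of C1ql3 0.49 (adjusted p = 0.842) and those of Calb1 0.74 and 0.58 (adjusted p-values of 0.695 and 1), and 0 of the 4 kept an unadjusted p below 0.05. Over all 33 alternatives the C1ql2 difference ranged from -1.74 to -0.15, with adjusted p-values of 0.032 to 1. The -1.74 was that without WT replicate 3 of 12 months, which leaves no WT mouse in slide row 2, so that row and genotype cannot be told apart in it.

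Across the 6 groups, several genes were ordered by age, with which slide changes throughout and sex at 12 months, and these orders are descriptions without a test. Prox1 was highest at 1 month (means of -1.21 in TgproNGF#3 and -1.62 in WT), intermediate at 12 months (-2.28 and -2.22) and lowest at 3 months (-3.07 and -2.95), and in the order of the means, WT of 1 month lay above WT of 12 months and TgproNGF#3 of 12 months above WT of 3 months without overlap, while the highest TgproNGF#3 mouse of 3 months (-2.45) reached the 12-month range. Tdo2 was highest at 1 month (-3.32 and -3.79) and lowest at 12 months (-5.15 and -5.52), with overlapping neighbours throughout. Dsp, Npnt and Stxbp6 had their highest means at 1 month too, and Stxbp6 its lowest at 3 months (1.34 and 1.08). Calb1 at 12 months in TgproNGF#3 (-2.61) stood next to both 1-month groups (-2.50 and -2.49), above the 3-month groups with no overlap, while WT of 12 months had the lowest mean of all (-3.34). For C1ql2 no neighbours in the order of the 6 group means were apart, from -1.05 in TgproNGF#3 of 1 month to -2.27 in TgproNGF#3 of 12 months. The other neighbours of C1ql3, Dsp and Npnt overlapped as well. Higher levels at 1 month were not particular to the 8 genes. In TgproNGF#3 and WT, the CA1 list had median levels of 0.50 and 0.28 at 1 month and -0.69 and -0.17 at 3 months. The leptomeningeal list did not follow, at -0.74 and -0.16, then -0.34 and -0.90. The share of spots well above background was 69.76 to 80.27% at 1 month and 57.6 to 64.7% at 3 months, and its part was not tested.

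Among the mice of a group, some of the 8 genes moved together. Over the 22 deviations from the group means, which share slides within an age, C1ql3 correlated with Calb1 and with Stxbp6 at r = 0.73 each. Dsp correlated at r = 0.68 with Calb1, 0.62 with C1ql3 and 0.61 with Stxbp6, whose upstream windows are given above, and Calb1 with Stxbp6 at 0.59. C1ql2 stood outside this set, with r = -0.38 to its paralog C1ql3 and -0.28 to Calb1, and Tdo2 and Npnt had r = 0.04 and 0.03 to the mean of the other 7 genes. Within the ages, Dsp and Calb1 had r = 0.76 over the 8 mice of 1 month, 0.43 over the 8 of 3 months and 0.87 over the 6 of 12 months, and C1ql3 and Calb1 had 0.86, -0.11 and 0.58. C1ql3 and Stxbp6 had 0.90, 0.53 and 0.04. The share of spots well above background on an array moved with the same genes, at r = 0.81 for C1ql3, 0.68 for Calb1, 0.52 for Stxbp6 and 0.39 for Dsp. The brightness of the array (its 75th percentile) did so as well, at r = 0.61 for Dsp, 0.53 for C1ql3, 0.40 for Stxbp6 and 0.25 for Calb1, with -0.55 for Npnt and -0.40 for Prox1, and the part of either measure in the covariation was not tested.

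**Figure D4:**
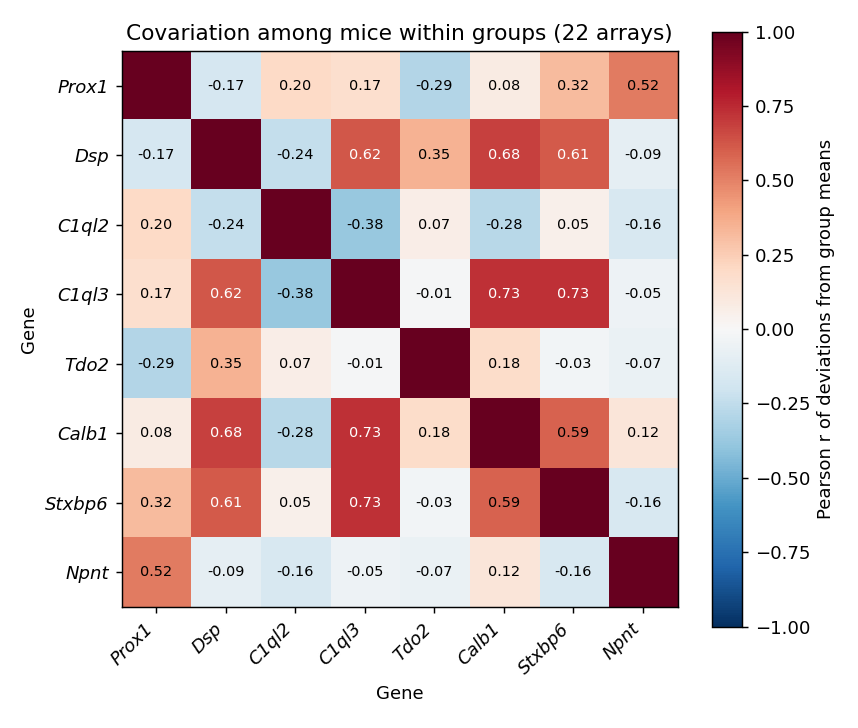
Pearson r between the 8 genes (both axes) over the deviations of 22 mice from their group means, red for positive and blue for negative values. Dsp, C1ql3, Calb1 and Stxbp6 form a red block with r from 0.59 to 0.73, and C1ql2 has no r above 0.20 with any other gene.

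Outside the 8 genes, the gene whose deviations were most like those of Dsp over the 22 arrays was Pkp2, a desmosomal plaque protein, at r = 0.90 among 28898 probes with a value on every array. The closest to Prox1 was Tmem132b (r = 0.915), to C1ql3 Pnma2 (0.953), to Calb1 Cdk9 (0.931), to Npnt Pdlim5 (0.897) and to Stxbp6 Aagab (0.891). C1ql2 was most like Nuf2 (0.825) and Tdo2 most like Myt1l (0.786). The mean of the 8 genes was most like 9930014A18Rik (0.866), and Kbtbd11 (0.81) was also among the closest.

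Other genes known from granule neurons gave a wider view of the same cells. At 3 months, 5 of 11 tested had an unadjusted p below 0.05, 4 lower and 1 higher in TgproNGF#3, beside 24.9% of all genes. Maml2, a Notch coactivator, fell with a Log2 FC of -3.14 (SE 0.25, adjusted p = 0.000654 in limma) and Pdzd2 with -0.82 (SE 0.206, adjusted p = 0.0409). Lct had -0.71 (SE 0.27) and Fam163b 0.44 (SE 0.189), both with an adjusted p above the threshold. The remaining gene was Trpc6, which encodes a cation channel, at -0.46 (SE 0.205, adjusted p = 0.181 in limma), named outside the rule on 4 genes a list after its value was seen. The count of 5 was 2 without TgproNGF#3 replicate 3 or WT replicate 4, 3 without TgproNGF#3 replicate 2, WT replicate 1 or WT replicate 3, and 3 with dim spots kept, with the percentile over all spots or with the authors' values, over a whole range of 2 to 7. The mean level of the 11 genes was -0.20 to 0.07 in the 4 TgproNGF#3 mice and 0.32 to 0.55 in the 4 WT mice, a difference of -0.46. Without Maml2, a choice made after its value was seen, the difference was -0.19 and the groups overlapped, at 0.39 to 0.67 and 0.64 to 0.86. The list median Log2 FC was -0.15, and that of the 8 markers was -0.15 too. At 1 and 12 months 0 of 12 had an unadjusted p below 0.05, with medians of 0.12 and -0.17. Over the alternatives these counts of 0 ranged up to 2, at 1 month with the authors' values and at 12 months without WT replicate 3. At 1 month the count was 1 with the replicate number as a block.

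Genes of immature granule neurons, among them Dcx, Sox11, Igfbpl1 and Eomes, had a median Log2 FC of 0.28 at 1 month, where 7 of 7 tested were above 0, as were 67.2% of all genes with a median of 0.07. Igfbpl1 was the member with an unadjusted p below 0.05, which 2.84% of all genes had, at 0.81 (SE 0.264, adjusted p = 1). All TgproNGF#3 mice were above all WT mice for this gene, a separation in 3.32% of all probes. Its Log2 FC was -0.20 (SE 0.346) at 3 months and -1.65 (SE 1.18) at 12 months. At 3 months Sox11 had -0.38 (SE 0.162, adjusted p = 0.165), and at 12 months 0 of 6 had an unadjusted p below 0.05. The list medians were 0.02 at both of these ages.

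At 3 months 24.9% of all genes had an unadjusted p below 0.05, beside 2 of 6 CA1, 2 of 4 CA3 and 4 of 4 CA2 pyramidal markers tested. Among the CA1 markers, Fibcd1 fell with -0.93 (SE 0.159, adjusted p = 0.00942 in limma), and the list median was -0.42. Of 4 CA3 markers tested, Grik4, a kainate receptor subunit, fell with -0.64 (SE 0.166, adjusted p = 0.0465), with a median of -0.58. The CA2 markers went both ways, with Amigo2 at -1.80 (SE 0.356, adjusted p = 0.0173) and Rgs14, Pcp4 and Cacng5 between 0.34 and 0.47 (adjusted p-values of 0.107, 0.12 and 0.132).

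Leptomeningeal and choroid plexus markers, which report how much adjoining tissue a dissection held, varied as well. The 8 leptomeningeal markers had a median Log2 FC of -0.36 at 1 month, 0.36 at 3 months and -0.96 at 12 months. At 1 month 0 of 8 had an unadjusted p below 0.05 (2.84% of all genes), a count that was 3 without TgproNGF#3 replicate 2. At 12 months Slc22a6, Aldh1a2 and Slc6a13 had -1.27, -1.55 and -1.42, each with the groups apart (15.5% of all probes) and adjusted p-values of 0.349, 0.51 and 0.549. They were the 3 of 8 with an unadjusted p below 0.05, beside 8.1% of all genes. That count was 2 to 5 over 18 alternatives, with 5 without TgproNGF#3 replicate 3. The mean level of the list was -1.97 to -1.08 in TgproNGF#3 and -1.01 to -0.26 in WT. At 3 months all 8 had a Log2 FC above 0, and the same 3 genes had 0.99, 0.84 and 0.77, with adjusted p-values of 0.0816, 0.0829 and 0.102. They were again the 3 of 8 with an unadjusted p below 0.05, where 24.9% of all genes were, and the count was 2 to 4 over 20 alternatives. The mean level was -0.80 to 0.10 in TgproNGF#3 against -1.07 to -0.50 in WT. The 6 choroid plexus markers ranged from -2.15 to 2.77 in mean level over all arrays, with both ends in TgproNGF#3 mice, and 0 of them had an unadjusted p below 0.05 at any age. All 6 had a Log2 FC below 0 at each age, with medians of -0.45, -0.86 and -1.08 at 1, 3 and 12 months. All 8 leptomeningeal and all 6 choroid plexus markers had values on every array, none was at background, and their part in the values of the 8 genes was not tested.

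**Figure D5:**
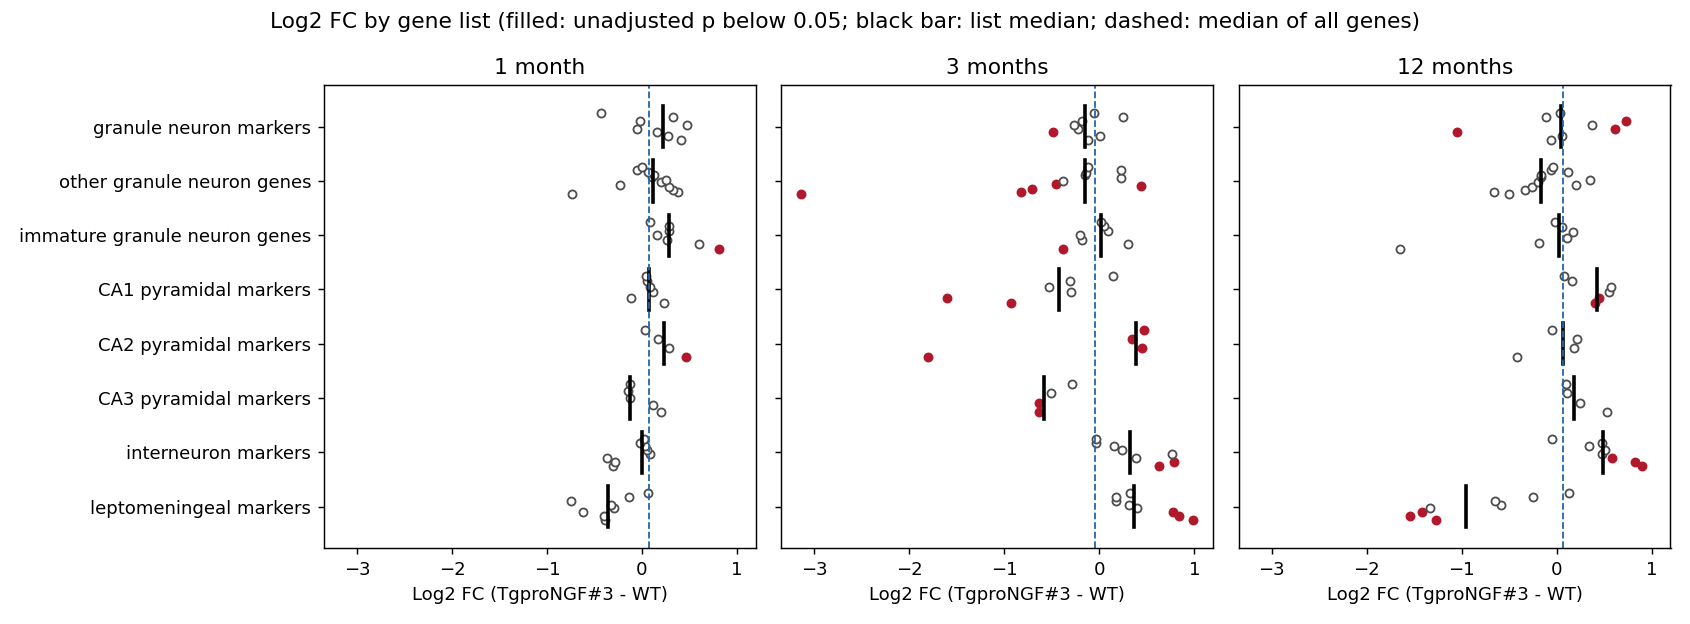
Log2 FC (x axis, TgproNGF#3 minus WT) of each gene in 8 lists (y axis) at 1, 3 and 12 months, filled in red where the unadjusted p is below 0.05, with a black bar at the list median and a dashed line at the median of all genes. The 8 granule neuron markers have medians of 0.22, -0.15 and 0.04, and the leptomeningeal markers lie on the low side at 12 months with a median of -0.96.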

How the data were processed

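Hippocampal RNA of 22 mice was labelled with Cy3 and hybridized to 1-colour Agilent arrays, 1 mouse per array. The authors deposited, per spot, the processed intensity of Feature Extraction 10.7.3.1 (background subtracted, not scaled between arrays) and a table of log2 values that they shifted per array to a common 75th percentile. For each array, the deposited intensities were taken without controls, outlier-flagged spots or spots that the software did not place well above background. Each log2 intensity was set relative to its array's 75th percentile, and spots of the same probe were averaged. Probes were named through their RefSeq transcript, and where a gene had several, the probe with values on the most arrays, then with the highest level, stood for it. Groups were compared within an age with limma 3.58.1 in R 4.3.3 (two-sided, at least 2 values per group), and by two-sided exact permutation tests. The call rule (Log2 FC beyond 1 and p below 0.05 without adjustment) follows the study's methods, and Benjamini-Hochberg adjustment ran over all probes tested. Differences between ages came from 1 fit of the 22 arrays with 6 groups. The named genes are the 8 markers and, from each other list, at most 4 genes per age with an unadjusted p below 0.05 and the smallest p, with Trpc6 besides. The results of some of these genes are not reported here. The markers, the lists and the tests were chosen with earlier results of these data known.

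The alternatives were: dim or outlier spots kept, probes required on every array, other scalings (percentile over all spots, median, quantile), a normexp background correction with an offset of 50 (run on median signals, since no mean signals are given), the authors' log2 values, a joint fit of all arrays, blocks for replicate number or array row, the mean over a gene's probes, other thresholds, and leaving out each mouse. Leaving Maml2 out of a list's mean and blocking age differences by slide row were chosen after seeing the data. At 1 month same-numbered arrays, which share a slide row, had correlations of 0.579, 0.299, 0.252 and 0.288 between their deviations from the group means. The 0.579 was that of replicate 1, whose arrays had the highest 75th percentiles of that age (11.964 and 11.937). Arrays of different numbers were not compared, so these values cannot tell whether the numbers pair the mice. Tested on simulated data in which 200 probes were changed by a log2 value of 2, the procedure recovered 99%, 98.5% and 99% of them at 1, 3 and 12 months. The number of arrays limits the precision. The genome build behind the probes was not needed, and upstream sequences are RefSeq's (GRCm38.p6).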

Additional observations from a re-analysis of the deposited data

Results flagged for a closer look

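C1ql3 in WT replicate 3 of 3 months, at 1.26 (log2 relative to the array's 75th percentile), stood far below the other 3 WT mice of that age, which read 1.56 to 1.60. Its gap to the nearest of them was 0.892 of the group's whole range. Among 36 sets of 4 mice examined for the probes of the 8 genes this was 1 case, and chance alone gives about 1 in 20. Without this mouse the 3-month Log2 FC of C1ql3 was -0.31, with an unadjusted p of 0.056 in limma's test.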

How the results depend on the processing

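The count of 0 markers called held at 1 and 3 months under every alternative, apart from the 1 marker at 3 months with an unadjusted p below 0.05 alone. At 12 months the count of 1 became 3 with an unadjusted p alone and 0 with an adjusted p, with dim spots kept, with the percentile over all spots, with median or quantile scaling, with the normexp correction, with the array row as a block and with a gene's probes averaged, and it ranged from 0 to 1 when each mouse was left out. The 3-month median of -0.15 was -0.02 with dim spots kept and with the percentile over all spots, and the 12-month median ranged from -0.05 to 0.27 over the mice left out. Keeping dim spots moved the 3-month median of all probes from -0.12 to 0.01, and median scaling the 12-month one from 0.01 to 0.16.

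Calb1 at 12 months kept its sign throughout (0.51 to 0.97 over 12 processing alternatives, 0.49 to 0.89 over the mice left out). C1ql3 did too, at 0.26 to 0.76 and 0.46 to 0.78, and C1ql2 ranged from -1.58 to -0.72 over the mice left out.

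With the array row as a block, the 12-month Log2 FC of C1ql2, the 1 marker called, went from -1.05 to 0.01 and that of Tdo2 from 0.37 to -0.10, while values nearer 0 became 0.12 for Prox1, -0.36 for Dsp, 0.05 for Stxbp6 and -0.46 for Npnt. Median scaling gave 0.04 for Calb1 at 1 month and 0.09 for Prox1 and 0.04 for Stxbp6 at 12 months, and quantile normalization 0.05 for Calb1 at 1 month, 0.08 for Npnt at 3 months and 0.09 for Prox1 at 12 months. At 3 months Prox1 became 0.01 with dim spots kept and with the percentile over all spots, and Npnt 0.08 and 0.07. The authors' values gave 0.03 for Npnt at 3 months and -0.02 for Dsp and -0.05 for Npnt at 12 months, normexp -0.02 for Tdo2 and -0.22 for Npnt at 12 months, and averaged probes -0.07 for Npnt at 12 months and 1.05 in place of 0.27 for Dsp at 1 month. The causes were not tested.

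Over the mice left out, the values ran from -0.01 to 0.36 for C1ql2, -0.29 to 0.18 for C1ql3, -0.22 to 0.18 for Calb1, 0.14 to 0.48 for Stxbp6 and -0.68 to -0.20 for Npnt at 1 month. At 3 months they ran from -0.33 to 0.17 for Prox1, -0.18 to 0.20 for Dsp and -0.66 to 0.24 for Npnt. At 12 months they ran from -0.15 to 0.02 for Prox1, -0.26 to 0.26 for Dsp, -0.20 to 0.02 for Stxbp6 and -0.26 to 0.27 for Npnt.

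With the replicate number as a block, 0, 0 and 1 markers were called at 1, 3 and 12 months and the medians were 0.22, -0.15 and 0.04, so the block changed no call of a marker, while other granule neuron genes with an unadjusted p below 0.05 at 1 month went from 0 to 1 and the number of all probes called at 1 month went from 231 to 452. At 3 and 12 months same-numbered mice correlated at -0.361 to -0.026 and -0.329 to 0.025. Same-numbered arrays of 3 months share a slide row too, and whether the numbers pair the mice was not tested at any age.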

Other observations

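Cbln1, which encodes a secreted synapse organizer related to the C1q-like proteins and is known best from cerebellar granule cells, had a Log2 FC of -1.07 (SE 0.425) at 1 month, with an unadjusted p of 0.0302 and an adjusted p of 1 in limma's test and overlapping groups. Of 4 markers of the thalamus, a neighbour of the hippocampus, Tcf7l2 was lower at 3 months with a Log2 FC of -0.70 (SE 0.162, adjusted p = 0.0312), while 0 of 4 had an unadjusted p below 0.05 at 1 or 12 months. Cpne7, a CA3 marker, had a Log2 FC of -0.64 (SE 0.191, adjusted p = 0.0687) at 3 months.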
